A study of Rattus norvegicus with 30 samples.

Results

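The 2 mature miR-181 miRNAs rno-miR-181a-5p and rno-miR-181b-5p were measured in the urinary exosomes of rats after renal ischemia-reperfusion injury (IRI). They are 2 of the 122 miRNAs listed in at least 1 of the 5 tables of the series, which hold 1 day each. The pair was selected by name, and it was chosen by the level of miR-181b-5p at day 2, which was at 0 in every sham rat and above 0 in every IRI rat. The values of day 2 are therefore given as a description, with no test. In the IRI group the pedicles of both kidneys of male Sprague-Dawley rats were clamped and then released, and in the sham group the same operation was done without clamping. Small RNA of exosomes purified from urine was sequenced at days 1, 2, 3, 7 and 14 in 3 sham rats (numbers 3, 6 and 9) and 3 IRI rats (numbers 1, 2 and 13), which gave 30 libraries. The same animal numbers recur on all days in the labels. Each group thus holds 3 replicate animals, and the days of one animal are not independent. miR-181a-5p was listed on all 5 days, and miR-181b-5p on days 1, 2, 7 and 14.

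The miR-181 family is made of miRNAs that share a seed, the bases near the 5′ end that pair with target mRNAs and largely set which mRNAs are repressed. The family is known for its high levels in the brain and in lymphoid cells, where miR-181a tunes the sensitivity of developing T cells to antigen, and for repressing anti-apoptotic members of the Bcl2 family after ischemia in the brain. A microRNA in urinary exosomes can come from any cell that sheds vesicles into the urine, mostly the epithelial cells that line the nephron. In such bulk samples, fewer vesicles that carry a miRNA and less of it per vesicle cannot be told apart.

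The 4 family members are shown here from RefSeq (GRCr8) because they differ by few bases, with bases 2 to 8, the seed, in capitals.
rno-miR-181a-5p: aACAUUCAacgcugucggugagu
rno-miR-181b-5p: aACAUUCAuugcugucggugggu
rno-miR-181c-5p: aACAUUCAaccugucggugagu
rno-miR-181d-5p: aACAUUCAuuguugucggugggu
All 4 hold the same seed, and these are the 4 mature sequences with it among the 693 of the RefSeq table. Counted from 1 at the 5′ end, miR-181a-5p differs from miR-181b-5p by A9U, C10U and A21G, so 20 of their 23 bases are the same. miR-181b-5p differs from miR-181d-5p by C12U alone, and the other 22 bases are shared. How many mismatches the alignment allowed was not given in the sources used here, so reads of miR-181b-5p and miR-181d-5p are uncertain where they could be exchanged. miR-181c-5p and miR-181d-5p were in none of the 5 tables, nor were the 3p arms of the family. GGAG, a motif linked to the loading of miRNAs into exosomes of human T cells, is in neither listed member on the strand shown, and it is in 11 (10.1%) of the 109 listed miRNAs that could be matched to a mature sequence.

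Each listed member is made from 2 hairpins. miR-181a-5p lies in Mir181a-1 on chromosome 13 and Mir181a2 on chromosome 3, and miR-181b-5p in Mir181b1 and Mir181b2 on the same chromosomes. Mir181c and Mir181d lie on chromosome 19. The hairpins of the chromosome 3 pair (GRCr8, RefSeq) are printed to show where the mature arm, in capitals, lies in each precursor.
Mir181a2: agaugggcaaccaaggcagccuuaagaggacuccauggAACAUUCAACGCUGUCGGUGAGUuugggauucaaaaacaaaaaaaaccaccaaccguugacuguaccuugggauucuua
Mir181b2: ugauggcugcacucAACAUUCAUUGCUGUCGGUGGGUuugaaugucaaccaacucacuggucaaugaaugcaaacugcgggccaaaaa

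The deposited values were taken to be read counts that were scaled per library. The listed miRNAs add up to between 742597 and 1906282 in a library. In each library a step was sought as the largest unit of which all values of up to 20 units were whole multiples within 0.1, and 1 such step was read as 1 sequenced read. A step with this property was found in all 30 libraries, and it is by this construction that the low values are whole. It ran from 22.72 to 3992.29, and the listed miRNAs amounted to between 211 and 50700 reads per library. The deepest were the IRI libraries of day 1, at 11165 to 50700 reads, where sham libraries had 935 to 2125. At day 2 the sham libraries had 696 to 1955 reads and the IRI libraries 1122 to 10543. From day 3 on, IRI rat 13 at day 3 had 12739 reads and the other libraries 211 to 1796. IRI libraries filled sequencing lanes 2 and 5, and sham libraries most of lanes 3 and 4, so that lane and surgery largely cannot be told apart.

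Every value of miR-181a-5p and miR-181b-5p above 0 was an even number of steps, 43 of 43, within 0.039 of a whole number. Of the other listed miRNAs that lie in 1 hairpin, 515 of 1091 low values were even (47.2%), and of those that lie in 2 hairpins, 105 of 143 (73.4%). Among miRNAs with at least 8 low values, all were even in 3 of 7 miRNAs with 2 hairpins (miR-24-3p, miR-30c-5p and miR-125b-5p) and in 4 of 57 with 1 (miR-29c-3p, miR-196b-5p, miR-340-5p and miR-351-5p), named after their values were seen. In the 1 other listed miRNA with 3 or more hairpins, 2 of 7 low values were even and 7 of 7 were multiples of 3. Among miRNAs with 1 hairpin, 249 of 1091 low values were multiples of 3. Whether reads were counted once for each hairpin was not tested. For both members a count was therefore taken as 2 steps, and a value of 0 as allowing up to 3 such counts, or 6 steps. These limits and the intervals given for shares cover counting error only, and PCR copies are not independent molecules.

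**Figure D1:**
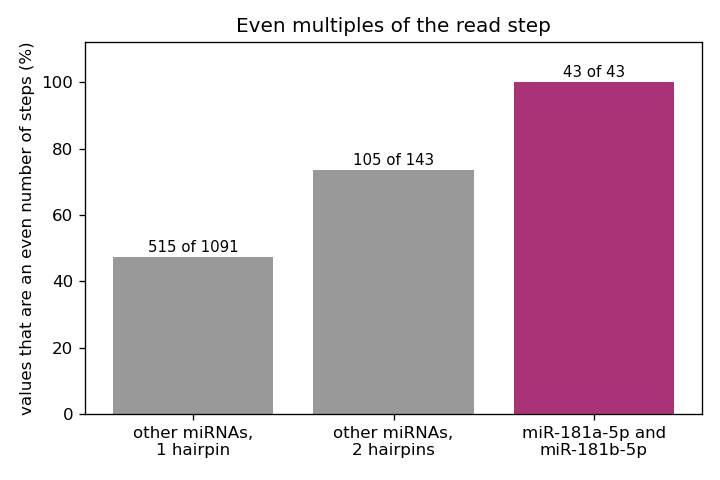
The share of values above 0 that are an even number of read steps (bars, in %), for other miRNAs with 1 hairpin, other miRNAs with 2 hairpins, and the 2 miR-181 members. The values of the other miRNAs are those of up to 20 steps, and the bar of the members stands at 43 of 43 where that of miRNAs with 1 hairpin stands at 515 of 1091.

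miR-181b-5p stood apart at day 2. It was at 4316 in IRI rat 1, 7942 in IRI rat 2 and 6318 in IRI rat 13, and at 0 in sham rats 3, 6 and 9. The means were 6192 ± 1816 in IRI and 0 in sham (SD, n = 3 each), and the groups did not overlap. It was the only miRNA of that day, 1 of 86 (1.16%), that lay higher in every IRI rat than in every sham rat. This is the pattern that chose it. No listed miRNA was at 0 in more than 3 libraries of a day. With zeros in all 3 sham rats, a miRNA could therefore be listed only if every IRI rat had some of it. Given the sham zeros, the separation of miR-181b-5p thus follows from its being listed, and it is not separate evidence of a difference. Another 10 of the 86 lay lower in every IRI rat than in every sham rat, so a lack of overlap was not particular to miR-181b-5p. By rank of the group mean miR-181b-5p was number 26 of 86 in IRI and last in sham. Behind the IRI values stood 9, 6 and 30 counts. A count of 0 allowed values of up to 7847, 3255 and 4116 in sham rats 3, 6 and 9, so the values of IRI rats 1 and 13 lie under the limit of sham rat 3, and that of IRI rat 2 lies above it. The IRI mean was 1.22-fold the average of these limits per library, 5073. With 1 step as a count, the average limit was 2536 and the ratio 2.44-fold. Neither ratio is a lower bound, since counting error in the IRI values was left out and these values chose the pair. The fitted IRI minus sham difference was 3.7 (standard error 0.56) on the log2(value + 500) scale, and it depends on the constant, since it was 6.92 with 50 and 2.01 with 2000. The zeros are those of the deposited table. A separate table of read counts published with the study, whose values are not used here, lists reads of miR-181b-5p in these 3 sham libraries, and the difference between the tables was not resolved.

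miR-181a-5p did not share this pattern at day 2. Its values were 10463, 7596 and 4116 in sham rats 3, 6 and 9 and 1918, 17208 and 7792 in IRI rats 1, 2 and 13. Both the lowest and the highest value were those of IRI rats, so the groups overlapped. The IRI mean of 8973 ± 7713 was 1.21-fold the sham mean of 7392 ± 3178 (SD, n = 3 each), and on the log2(value + 500) scale the difference was -0.07 (standard error 0.81), or 0.10 after scaling to equal library totals. The 2 members added up to 4116 to 10463 in sham and 6234 to 25150 in IRI, which also overlapped. In sequencing lane 4, the lane of day 2 that held both groups, miR-181b-5p was at 0 in sham rat 9 and at 6318 in IRI rat 13, and miR-181a-5p at 4116 and 7792. These are 1 library per group, with 1955 reads in sham rat 9 and 10543 in IRI rat 13. The 0 of sham rat 9 allowed a value of up to 4116, and an effect of the lane was not tested.

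**Figure D2:**
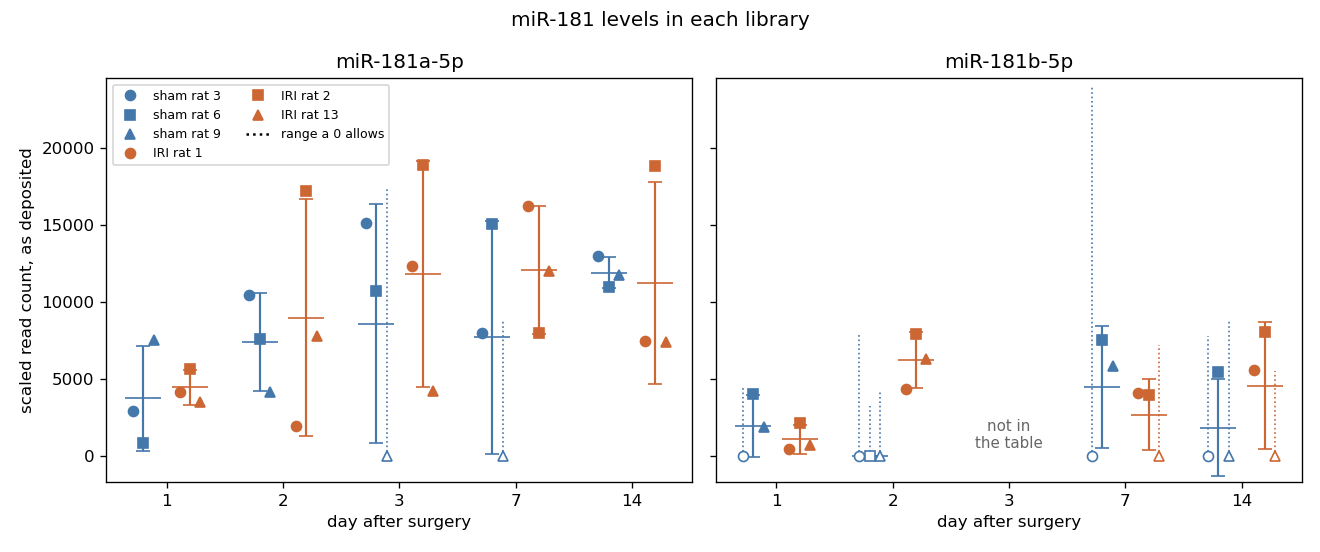
Scaled values of miR-181a-5p (left) and miR-181b-5p (right) in each library by day after surgery, as deposited, for 3 sham and 3 IRI rats (horizontal bars, means; error bars, SD). Open symbols are values of 0 with the range that a 0 allows as a dotted line, and at day 2 miR-181b-5p lies at 4316 to 7942 in IRI and at 0 in sham.

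At days 1, 7 and 14, miR-181b-5p was measured in the same rats and neither group was higher throughout. At day 1 it was at 0, 4020 and 1873 in sham rats 3, 6 and 9 and at 415, 2143 and 681 in IRI rats 1, 2 and 13. At day 7 it was at 0, 7536 and 5820 in sham and at 4061, 3971 and 0 in IRI, with the rats in the same order. At day 14 it was at 0, 5472 and 0 in sham and at 5604, 8061 and 0 in IRI. The groups overlapped on each of these days, and sham rat 3 was at 0 on all of them. Its libraries of days 1, 7 and 14 held 1199, 211 and 711 reads. A 0 in them allowed values of up to 4376, 23954 and 7786. On these 3 days together, without the day that chose the pair, miR-181b-5p was above 0 in 7 of 9 IRI libraries and 5 of 9 sham libraries. These tallies are not adjusted for depth, which at day 1 was 11165 to 50700 reads in IRI and 935 to 2125 in sham.

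None of these differences passed the adjusted threshold of 0.05. At day 1 the IRI minus sham difference of miR-181b-5p was -0.30 (standard error 0.88, adjusted p = 0.899 from limma), where 1 of 110 miRNAs passed (0.909%). At day 7 it was -0.44 (standard error 1.34, adjusted p = 0.885 from limma), where 2 of 68 passed (2.94%), and at day 14 it was 1.38 (standard error 1.38, adjusted p = 0.697 from limma), where 0 of 79 passed (0.0%) and 9 had an unadjusted p under 0.05. With standard errors of 0.88 to 1.38, differences of several fold could have been missed. Leaving out a single rat turned the sign at days 1 and 7. At day 14 it moved the difference to between 0.61 (without IRI rat 2) and 2.66 (without IRI rat 13), and a constant of 50 gave 2.46.

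miR-181a-5p was above 0 in 15 of 15 IRI libraries and 13 of 15 sham libraries. At day 1 it was at 2917, 804 and 7492 in sham rats 3, 6 and 9 and at 4153, 5665 and 3498 in IRI rats 1, 2 and 13. At day 3 it was at 15089, 10673 and 0 in sham and at 12350, 18860 and 4190 in IRI. At day 7 it was at 7985, 15073 and 0 in sham and at 16246, 7943 and 11991 in IRI. The 2 zeros were those of sham rat 9, whose library of day 3 held 289 reads and allowed a value of up to 17409 behind a 0. At day 14 miR-181a-5p was at 12976, 10944 and 11743 in sham, its tightest group, and at 7472, 18809 and 7366 in IRI. The groups overlapped on all 5 days.

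The IRI minus sham difference of miR-181a-5p was 0.56 at day 1 (standard error 0.67, adjusted p = 0.823 from limma) and 1.25 at day 3 (standard error 1.27, adjusted p = 0.840 from limma). It was 1.58 at day 7 (standard error 1.27, adjusted p = 0.780 from limma) and -0.21 at day 14 (standard error 0.51, adjusted p = 0.878 from limma). It did not pass on any of these days, and 1 of 72 miRNAs passed at day 3 (1.39%). Without sham rat 9 the difference was -0.33 at day 3 and 0.07 at day 7, so its size on these days rests on the zeros of that rat.

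**Figure D3:**
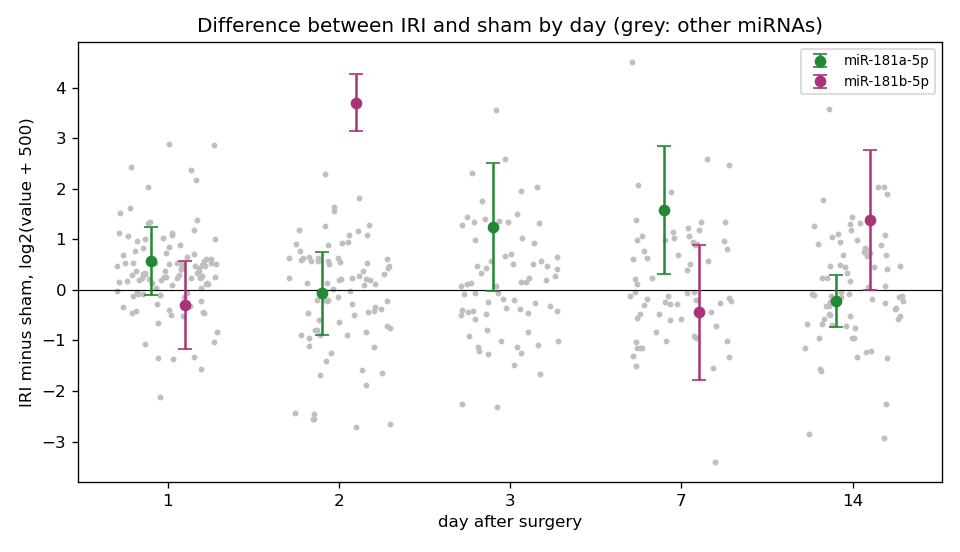
IRI minus sham difference on the log2(value + 500) scale by day after surgery, for miR-181a-5p (green) and miR-181b-5p (purple) with their standard errors, and for the other listed miRNAs (grey points). The point of miR-181b-5p at day 2 stands at 3.7, and the other 8 points of the members lie between -0.44 and 1.58.

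The levels of the days come from tables that were scaled separately, so their order is given as a description. In sham rats the mean of miR-181a-5p was lowest at day 1 (3738 ± 3419), followed by day 2 (7392 ± 3178), day 7 (7686 ± 7541), day 3 (8587 ± 7758) and day 14 (11888 ± 1024, SD, n = 3 on each day). In IRI rats it was again lowest at day 1 (4439 ± 1111), followed by day 2 (8973 ± 7713), day 14 (11216 ± 6576), day 3 (11800 ± 7350) and day 7 (12060 ± 4152). For miR-181b-5p the order in sham was day 2 (0), day 14 (1824 ± 3159), day 1 (1964 ± 2012) and day 7 (4452 ± 3950). In IRI it was day 1 (1080 ± 930), day 7 (2677 ± 2319), day 14 (4555 ± 4132) and day 2 (6192 ± 1816). Of the 14 pairs of neighbours in these 4 orders, 13 differed by less than the larger of their SDs. The exception was miR-181a-5p in sham at days 1 and 2, which differed by 3654 where the larger SD was 3419. Neighbours are the closest days by construction, so this count does not describe the whole order. The lowest and the highest day of each order, picked as extremes, differed by more than the larger of their SDs. By rank among the listed miRNAs, miR-181a-5p moved from 31 of 110 in sham and 35 of 110 in IRI at day 1 to 15 of 79 in both groups at day 14.

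The change of the IRI minus sham difference from one day to another was tested within rats for pairs of days 1, 3, 7 and 14. None of the 9 differences, 6 of miR-181a-5p and 3 of miR-181b-5p, passed (adjusted p = 0.452 to 0.994 from limma). No other miRNA passed in any of the 6 pairs of days (0.0% of 57 to 75 miRNAs), and 2 to 12 had an unadjusted p under 0.05. From day 7 to day 14 the difference of miR-181b-5p changed by 1.82 (standard error 1.06) and that of miR-181a-5p by -1.79 (standard error 1.41). Without sham rat 9 these changes were 0.67 and -0.29, and leaving out each rat in turn gave 0.67 to 2.50 and -2.82 to -0.29.

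The share of miR-181b-5p in the sum of both members does not depend on how a library was scaled. At day 2 it was 69.2% in IRI rat 1 (9 of 13 counts, exact 95% Clopper-Pearson interval 38.6% to 90.9%), 31.6% in IRI rat 2 (6 of 19, 12.6% to 56.6%) and 44.8% in IRI rat 13 (30 of 67, 32.6% to 57.4%). In sham rats 3, 6 and 9 it was 0 of 4, 0 of 7 and 0 of 3 counts, with upper bounds of 60.2%, 41.0% and 70.8%. The interval of each sham rat thus overlaps that of every IRI rat. These sham shares, their bounds and the pooled counts take the zeros of the deposited values as counted. The separately published read counts list reads of miR-181b-5p in these sham libraries, and that difference was not resolved. The pooled counts of day 2, among the values that chose the pair, were 0 of 14 in sham and 45 of 99 in IRI (45.5%). Pooling leaves out the spread between rats, and 67 of the 99 IRI counts were those of IRI rat 13, so no interval is given for it. At day 1, IRI rats 1, 2 and 13 had shares of 9.09%, 27.5% and 16.3%, each from 51 to 92 counts. Sham rats 3, 6 and 9 had shares of 0%, 83.3% and 20% on that day, each from 2 to 6 counts. The change of the share between days was not tested.

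On the other days the shares of the groups overlapped. They were compared by an exact two-sided permutation test, for which 0.1 is the smallest p that 3 against 3 rats allow. At day 1 the mean share was 34.4% ± 43.5 in sham and 17.6% ± 9.25 in IRI (SD, n = 3 each, exact p = 0.8). At day 7 it was 44.4% ± 50.9 in sham and 17.8% ± 16.8 in IRI (exact p = 0.7), and at day 14 it was 11.1% ± 19.2 and 24.3% ± 22 (exact p = 0.7). At days 7 and 14 each library held 1 to 15 counts of both members together, and in sham rat 9 at day 7 both counts were of miR-181b-5p.

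**Figure D4:**
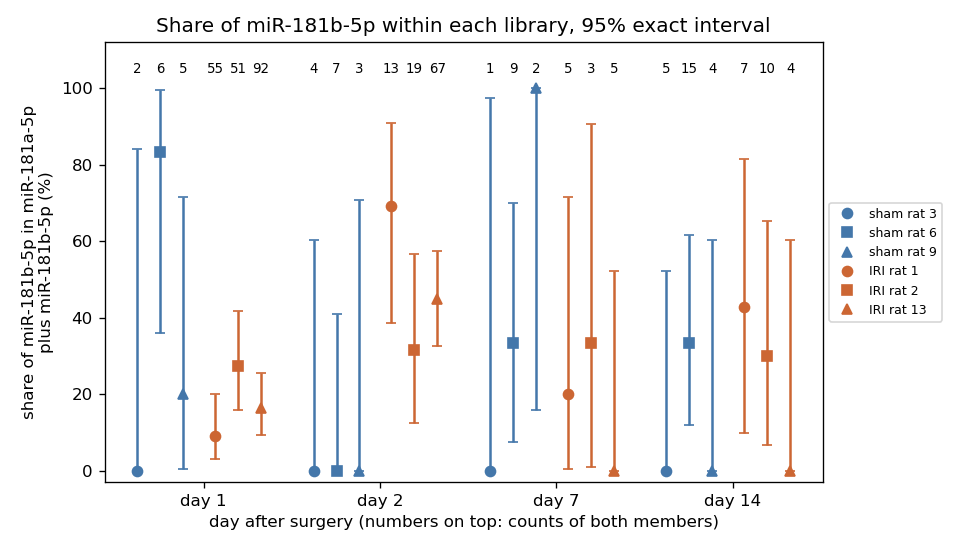
Share of miR-181b-5p in the summed counts of miR-181a-5p and miR-181b-5p (in %) in each library of days 1, 2, 7 and 14, with exact 95% intervals that cover counting error only. The numbers on top are the counts of both members, which run from 1 to 92. At day 2 the IRI rats stand at 31.6% to 69.2% and the sham rats at 0 of 3 to 0 of 7 counts in the deposited values.

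Over libraries the 2 members showed no clear joint movement. Between them the Pearson correlation of log2(value + 500), centred within each day, was -0.08 over the 24 libraries that list both, and miR-181a-5p was number 34 of 60 miRNAs in likeness to miR-181b-5p. The miRNAs most like miR-181b-5p were miR-320-3p (0.39), let-7e-5p (0.38) and let-7d-5p (0.38), the last 2 of the let-7 family. Those most like miR-181a-5p, over 30 libraries and 55 miRNAs, were miR-125b-5p (0.53), miR-29a-3p (0.52) and miR-196a-5p (0.43). miR-29a-3p is known to repress collagen mRNAs, and miR-196a-5p is encoded in the Hox clusters. By Spearman correlation the first 3 were at 0.34, 0.45 and 0.43, and the last 3 at 0.37, 0.31 and 0.26, where miR-29a-3p was number 6 and miR-196a-5p number 11 of 55. The points share 6 rats, the depth of each library and many values of 0, and these correlations are weak. The points also include the libraries of day 2, whose values of miR-181b-5p chose the pair. With few counts behind many values, a joint movement of the 2 members could have been missed.

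Markers of tubule epithelium were the most fully listed of the cell type markers. At day 2, 9 of the 10 on the list were in the table, and their values added up to 61471 to 156418 in sham and 80747 to 173425 in IRI. None of the 9 passed the threshold of limma. The 1 of all 86 that did (1.16%) was miR-181b-5p, whose values of day 2 chose the pair, so this is not counted as a test of it. The median difference of the 9 markers was 0.54, where that of all 86 miRNAs was 0.11. miR-192-5p, a miRNA enriched in the renal tubule, was at 22234, 8681 and 12349 in sham rats 3, 6 and 9 and at 6474, 10590 and 526 in IRI rats 1, 2 and 13 on that day. miR-200c-3p, which maintains the epithelial state by repressing Zeb1 and Zeb2, was at 2616, 2170 and 11663 in sham and at 20381, 662 and 13057 in IRI.

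Of the 7 leukocyte markers only miR-142-3p, a miRNA of blood cells, was in the table of day 2, at 1308, 543 and 0 in sham rats 3, 6 and 9 and at 3357, 0 and 3054 in IRI rats 1, 2 and 13. The lymphoid miR-150-5p, the myeloid miR-223-3p, the erythroid miR-451-5p and the endothelial miR-126a-3p were in none of the 5 tables. Of the stromal list, miR-199a-3p alone was present at day 2, at up to 1085 in sham and 1986 in IRI. The part of other cell types in the level of miR-181b-5p was not tested.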

How the data were processed

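Per the labels, 30 libraries came from 3 sham and 3 IRI rats on 5 days. The authors trimmed adaptors with Cutadapt, aligned reads to the rat genome version 5 with Bowtie and the miRDeep2 mapper, and counted with HTSeq. The deposited signal values were taken to be such counts, scaled per library and rounded. How these values relate to the separately published read counts was not resolved. The scaling and the tool versions were not given in the sources used here. Each table also holds the authors' edgeR results, which were not used. Listed miRNAs were above 0 in at least 3 of 6 libraries. No count test was run, since the values are scaled.

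Members, marker lists and tests were chosen with earlier results of these data known. Named are the members, the 3 miRNAs most like each, and defining markers. Values were taken as log2(value + 500) and compared within a day with limma 3.58.1 in R 4.3.3 across all listed miRNAs, with Benjamini-Hochberg adjustment. The constant can shrink or enlarge differences of low miRNAs. With a constant of 0.5 reads, the difference of miR-181a-5p at day 3 was 0.69 in place of 1.25. That of miR-181b-5p at day 7 was -0.94 in place of -0.44. Differences between days were taken within each rat, since the labels give the same animals. Shares used exact tests in SciPy 1.17.1. Rats of a group were taken as separate animals from the labels. The fit was tested on simulated data. Alternatives were other constants, scalings, a filter and leaving out each rat. Counting a single step was added after the data were seen.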

Additional observations from a re-analysis of the deposited data

How the results depend on the processing

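No tested difference passed the adjusted threshold in any of 170 alternative fits of limma (adjusted p = 0.316 to 0.998), and 16 of these fits turned the sign. The difference of miR-181b-5p at day 2 was 6.92 with a constant of 50 and 2.01 with 2000, and 3.52 to 3.92 without 1 rat. Where a miRNA had to be above 0 in 5 or more libraries, this difference could not be fitted. The ratio of the IRI mean of miR-181b-5p at day 2 to the average limit of a 0 in sham was 2.44 with single steps. With a constant of 50, miR-181b-5p at day 1 was at 0.31. Scaling to equal totals moved the median difference of all miRNAs from 0.30 to 0.11 at day 1, from 0.11 to 0.26 at day 2 and from 0.13 to -0.12 at day 3, and recentring moved it from -0.05 to -0.17 at day 7. By Spearman correlation the members' likeness was 0.053.

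Leaving out 1 rat gave -1.21 to 0.38 for miR-181b-5p at day 1 (positive without sham rat 6 or IRI rat 1) and -1.72 to 0.62 at day 7 (positive when sham rat 6 or 9 or IRI rat 13 was left out). For miR-181a-5p it gave -0.11 to 1.2 at day 1 (negative without sham rat 6), -0.33 to 2.16 at day 3 (negative without sham rat 9) and -0.64 to 0.0055 at day 14 (positive without IRI rat 13). Between days, miR-181a-5p ran from -1.53 to 2.02 (days 1 and 3), -1.13 to 2.66 (days 1 and 7), -0.27 to 1.03 (days 3 and 7) and -2.31 to 0.11 (days 3 and 14). For days 1 and 3, days 1 and 7, and days 3 and 14 the sign turned without sham rat 9. Between days 3 and 7 it turned without sham rat 3 or IRI rat 13, and not without sham rat 9. miR-181b-5p ran from -0.99 to 0.79 (days 1 and 7, positive without sham rat 9 or IRI rat 13). The share difference, IRI minus sham, ran from -34.1 to 7.61 percentage points at day 1 and from -48.9 to 1.11 at day 7, positive without sham rat 6 at day 1 and without sham rat 9 at day 7. Why these values moved was not tested. Without the replicate block, the change of miR-181b-5p from day 7 to day 14 was 1.82 as before, and no call changed.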
